A study of Homo sapiens with 8 samples.

Results

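The EGFR (ERBB) family was examined as 10 genes chosen by name, the 4 receptors EGFR, ERBB2, ERBB3 and ERBB4 and the 6 EGF-type ligands EGF, TGFA, AREG, EREG, HBEGF and BTC, out of 57992 genes listed for each library. All 10 were found in the count tables by Ensembl identifier. The libraries came from RKO, an established human colon carcinoma cell line. Of the 8 libraries, 4 were made from cells given a control siRNA and 4 from cells given an siRNA against A20, the ubiquitin-editing enzyme encoded by TNFAIP3. Every culture, controls included, had received recombinant human wnt3a at 50 ng/mL for 24 hours, so no library shows the family without wnt3a. The comparison addressed whether transcripts of this family differed when A20 was knocked down in wnt3a-stimulated cells. The TNFAIP3 transcript was lowered and not absent, and neither the labels nor the methods say whether the 4 replicates of a group were separate experiments or parallel cultures, so the p-values measure the spread between these samples, which may be technical.

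The ERBB receptors are cell surface tyrosine kinases that act in pairs. Their ligands are made as membrane-bound precursors, are cut from the cell surface by metalloproteases of the ADAM family, and bring receptors together so that the kinases phosphorylate each other and recruit adaptors of the RAS-MAPK and PI3K pathways. EGFR binds all 6 of the ligands examined here, ERBB2 has no known ligand and serves as the favoured partner of the others, ERBB3 has a weak kinase and many docking sites for PI3K, and ERBB4 is an active kinase that also binds neuregulins. In the intestine these ligands maintain the growth of crypt epithelium, and AREG and EREG are widely studied in colorectal tumors.

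Total counts ranged from 21226451 to 34194273 per library. At these depths 3 counts, taken as the smallest level that can be told from 0, corresponded to between 0.0875 and 0.141 CPM (CPM is the read count scaled to a common library size, with TMM factors). TNFAIP3 was at 5.47 ± 0.388 CPM (SD, n = 4) in the control libraries and at 3.33 ± 0.215 CPM (SD, n = 4) in the A20 siRNA libraries, a log2 fold change of -0.71 (adjusted p = 0.00258, edgeR quasi-likelihood). Of 8 epithelial markers, EPCAM, KRT8, KRT18 and the intestinal transcription factor CDX2 were above 12.6 CPM in every library, whereas CDH1 and KRT19 had no count in any library and VIL1 and LGALS4 had at most 2 counts. Their summed level was 140.4 to 151.7 CPM in the control libraries and 138.1 to 146.3 CPM in the A20 siRNA libraries. None of the 4 endothelial markers exceeded 3 counts, 2 of 5 fibroblast markers did (at most 8 counts), and of 6 leukocyte markers the lysosomal gene CD68 alone did, while PTPRC, CD3E and MS4A1 were at 0. Of 13412 genes tested, 1.25% had an adjusted p-value under 0.05, 85 of them (0.634%) higher and 82 (0.611%) lower after A20 siRNA. That split moved to 98 higher and 249 lower when each library was corrected for trends with exonic length and GC content, and to 83 higher and 122 lower with DESeq2.

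In these siRNA- and wnt3a-treated RKO libraries a part of the family was expressed. ERBB2, HBEGF and EGFR were the most abundant members, ERBB3, TGFA and BTC were present at low levels, and AREG, EGF, EREG and ERBB4 were at or near 0. In all, 6 members (3 receptors and 3 ligands) passed the filter on low counts and were tested. The 4 that did not pass were ERBB4, EGF, AREG and EREG.

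Levels were compared between genes as RPKM, which divides CPM by the length of the gene's exons in kilobases. ERBB2 was the highest member at 9.71 ± 0.214 RPKM (SD over 8 libraries), with every library between 9.42 and 10.03 RPKM, and 65.8% of the tested genes with a known length were at or below its mean level. HBEGF, a ligand that also binds heparan sulfate and serves as the diphtheria toxin receptor, came next at 4.96 ± 0.254 RPKM. EGFR followed at 2.86 ± 0.151 RPKM. The ranges of these 3 genes over the 8 libraries did not meet, since the lowest HBEGF library was at 4.58 RPKM and the highest EGFR library at 3.14 RPKM. In CPM, without division by length, EGFR stood above HBEGF, because its exons cover 15941 bases and those of HBEGF 2990 bases.

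Below these, ERBB3 was at 0.715 ± 0.0534 RPKM, TGFA at 0.483 ± 0.0318 RPKM and BTC at 0.427 ± 0.0603 RPKM (SD over 8 libraries). The lowest ERBB3 library (0.664 RPKM) was above the highest TGFA library (0.526 RPKM). TGFA and BTC could not be ordered, as the BTC libraries spanned 0.384 to 0.558 RPKM and the TGFA libraries 0.439 to 0.526 RPKM. The same order was found when the length of the longest annotated transcript was used in place of all exons, with ERBB2 then at 20.3 RPKM. HBEGF alone supplied 79.6% ± 1.42 (SD, n = 4) of all reads on the 6 ligands in the control libraries and 80.2% ± 0.855 (SD, n = 4) in the A20 siRNA libraries.

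**Figure D1:**
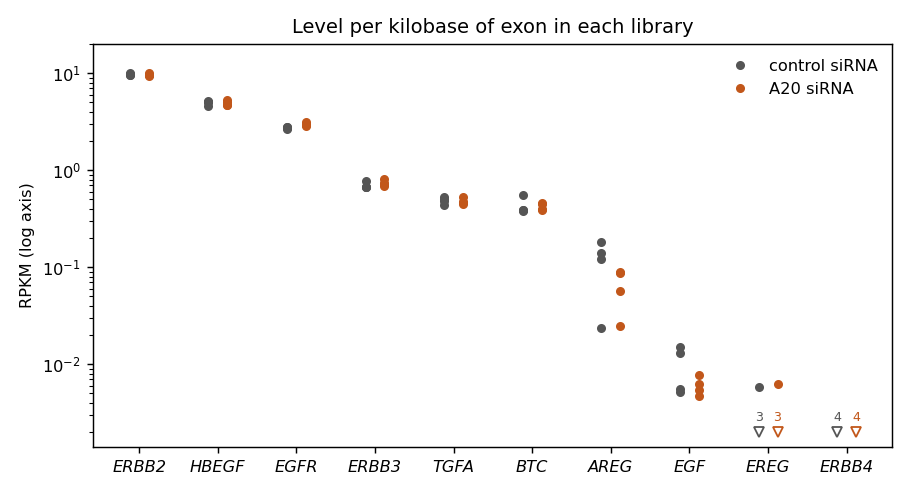
Level of each family member in RPKM (log axis) in the 4 control siRNA libraries (grey) and the 4 A20 siRNA libraries (orange), 1 point per library, with open triangles at the foot for libraries at 0 and their number above. ERBB2, HBEGF and EGFR form 3 separate levels, TGFA and BTC overlap, and EREG and ERBB4 had at most 1 count in any library.

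EGFR is encoded by ENSG00000146648 on chromosome 7 from 55019017 to 55211628 (GRCh38). In replicates 1 to 4 its level was 44.9, 42.2, 44.4 and 43.8 CPM after control siRNA and 46.3, 46.0, 47.5 and 50.0 CPM after A20 siRNA, from 1037 to 1589 reads each. Every A20 siRNA library was therefore above every control library. Group means were 43.8 ± 1.18 and 47.4 ± 1.81 CPM (SD, n = 4 each), and EGFR was higher by 0.11 on the log2 scale (SE 0.03, 95% confidence interval 0.04 to 0.18), or by 7.92% (2.63% to 13.5%), where SE is the standard error of the fit. EGFR had the smallest p-value of the family, at rank 581 of all 13412 tested genes, and its adjusted p of 0.114 did not pass the threshold in edgeR's quasi-likelihood test. In bulk RNA, a larger share of cells expressing EGFR and more EGFR transcript per cell cannot be told apart. Groups without overlap were found for 3.71% of all tested genes with A20 siRNA higher and for 3.9% with A20 siRNA lower.

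The size of the EGFR difference was smaller after a joint correction for exonic length and GC content. The annotated exons of EGFR together cover 15941 bases, against a median of 4982 for the tested genes, and its longest transcript has 9905 bases. Each library's deviation from the mean of all libraries had its own trend with exonic length, with Spearman's rho across genes of 0.079, -0.164, -0.111 and -0.20 in control replicates 1 to 4 and of 0.069, -0.082, 0.144 and 0.178 in A20 siRNA replicates 1 to 4. From the lowest to the highest EGFR level in CPM, the libraries were control replicates 2, 4, 3 and 1, then A20 siRNA replicates 2, 1, 3 and 4. In that order rho was -0.164, -0.20, -0.111, 0.079, -0.082, 0.069, 0.144 and 0.178. The order by rho was thus similar but not the same. After correction for length and GC content together the log2 fold change of EGFR was 0.064 (adjusted p = 0.315). The part of length alone in the difference was not tested.

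The antisense gene EGFR-AS1 shares 186 exonic bases with EGFR and had at most 2 counts in any library. The strand setting of the counting was not given in the sources used here.

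ERBB2 (ENSG00000141736, chromosome 17, 39687914 to 39730426) was covered by the most reads, 2089 to 3333 per library. Its level was 101.7, 99.5, 98.9 and 102.6 CPM in the control libraries and 97.2, 99.8, 103.5 and 98.2 CPM in the A20 siRNA libraries. The A20 siRNA libraries extended beyond the controls on both sides, and the difference was -0.01 on the log2 scale (SE 0.03, adjusted p = 0.83). With a 95% confidence interval of -4.73% to 2.81%, ERBB2 was the member measured with the narrowest interval. Reads from a stretch of 571 exonic bases that ERBB2 shares with its opposite-strand neighbour MIEN1 are not certain to be assigned to the right gene, and MIEN1 itself was at 34.6 CPM.

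Within each library the reads on EGFR were set against those on ERBB2, a ratio that no library size enters. It was 0.441, 0.424, 0.449 and 0.427 in control replicates 1 to 4 and 0.477, 0.461, 0.459 and 0.509 in A20 siRNA replicates 1 to 4. The ranges did not overlap. Those of the reads on ERBB3 against ERBB2 did, from 0.0758 to 0.0883 in the control libraries and from 0.0831 to 0.0967 in the A20 siRNA libraries. The EGFR ratio uses the same EGFR reads as the comparison above, and no test was made of either ratio.

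ERBB3 (ENSG00000065361, chromosome 12, 56076799 to 56103505) had 184 to 277 reads per library. The control libraries were at 8.98, 7.79, 7.87 and 7.78 CPM and the A20 siRNA libraries at 8.08, 8.34, 8.64 and 9.50 CPM. Control replicate 1 lay above the other controls and within the range of the A20 siRNA libraries, so the groups overlapped. The difference was 0.07 on the log2 scale (SE 0.07, adjusted p = 0.676), with a 95% confidence interval of -5.37% to 17.2%. It was 0.13 without control replicate 1 and 0.032 without A20 siRNA replicate 4. The coefficient of variation between libraries of a group, 7.22% for control and 7.13% for A20 siRNA, was close to the 6.70% that counting error alone gives at this depth.

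ERBB4 (ENSG00000178568, chromosome 2, 211375717 to 212538841) had 0 counts in all 8 libraries. A count of 0 allows up to 3 counts, so its level was below 0.141 CPM even in the shallowest library. Counting intervals of this kind cover counting error only.

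**Figure D2:**
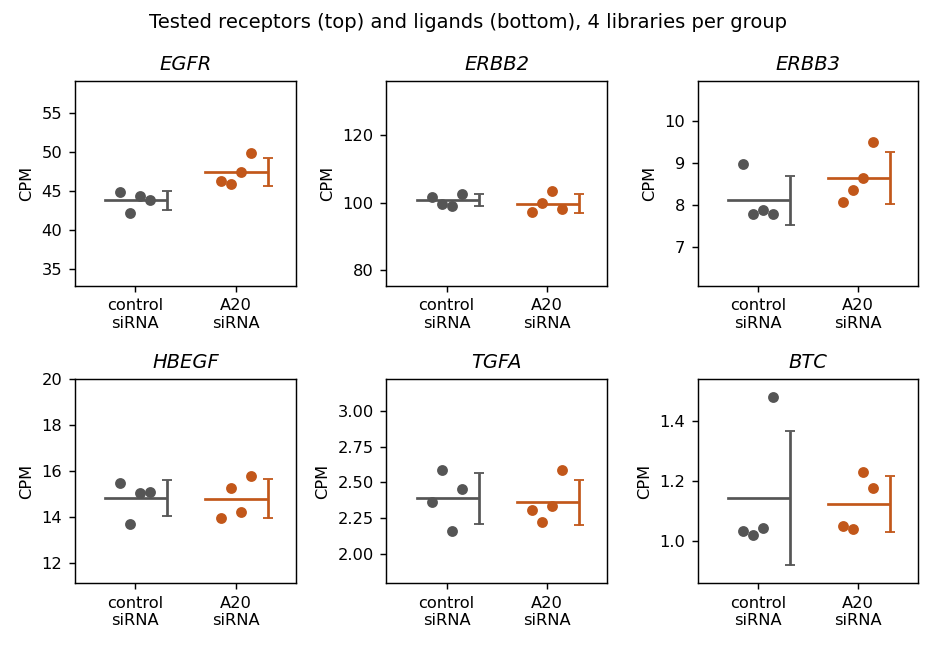
CPM of the 6 tested members in each library, with points for the 4 libraries of a group in the order of replicates 1 to 4, a horizontal line at the mean and a bar of 1 SD on each side. Every axis spans the same relative range around the control mean and does not start at 0. The EGFR libraries separate by group (at most 44.9 CPM against at least 46.0 CPM), and the other 5 genes overlap.

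Among the ligands, HBEGF (ENSG00000113070, chromosome 5, 140332843 to 140346603) was at 15.5, 13.7, 15.0 and 15.1 CPM in the control libraries and at 14.0, 15.3, 14.2 and 15.8 CPM in the A20 siRNA libraries, from 336 to 479 reads each. The 2 groups covered nearly the same range, and they differed by -0.01 on the log2 scale (SE 0.06, adjusted p = 0.952). Its 95% confidence interval ran from -8.54% to 7.83%.

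TGFA (ENSG00000163235, chromosome 2, 70447284 to 70554193), a ligand that many carcinomas make for themselves, had 2.36, 2.58, 2.16 and 2.45 CPM in the control libraries and 2.30, 2.22, 2.33 and 2.59 CPM in the A20 siRNA libraries. The groups overlapped, at a difference of -0.02 on the log2 scale (SE 0.12, adjusted p = 0.947). At 55 to 79 reads per library the 95% confidence interval was wider, from -17.6% to 17.3%.

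BTC, or betacellulin (ENSG00000174808, chromosome 4, 74744759 to 74794523), a ligand of both EGFR and ERBB4, had 1.03, 1.02, 1.04 and 1.48 CPM in the control libraries and 1.05, 1.04, 1.23 and 1.18 CPM in the A20 siRNA libraries. Control replicate 4 was the highest of all libraries and the other controls were the lowest together with A20 siRNA replicates 1 and 2. The difference came to -0.02 on the log2 scale (SE 0.18, adjusted p = 0.964), and with 25 to 36 reads per library the 95% confidence interval ran from -24.5% to 28.0%. Without control replicate 4 the log2 fold change was 0.11 (adjusted p = 0.880). The intervals of BTC, TGFA and ERBB3 (-5.37% to 17.2%) all include the 7.92% seen for EGFR, which itself did not pass the threshold. For these genes a difference of that size was therefore not excluded. Whether it could have been detected at this depth was not tested.

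The remaining ligands were near the limit of detection. AREG, or amphiregulin (ENSG00000109321, chromosome 4, 74445136 to 74455005), had 6, 1, 6 and 7 reads in the control libraries and 5, 4, 1 and 2 reads in the A20 siRNA libraries, 20 and 12 reads in all. The groups overlapped, and in a fit without a low-count filter the log2 fold change was -0.76 with an adjusted p of 0.658. EGF (ENSG00000138798, chromosome 4, 109912883 to 110013766), the founding ligand of the family, had 1 to 3 reads in every library. EREG, or epiregulin (ENSG00000124882, chromosome 4, 74365145 to 74388749), had a single read in control replicate 1, a single read in A20 siRNA replicate 2 and none elsewhere. No fold change is given for EGF and EREG, as both groups were at or under 3 counts per library.

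AREG, EREG and BTC lie near each other on chromosome 4, together with epigen (EPGN), in a stretch of 486.1 kb in the order EPGN, EREG, AREG and BTC. EREG ends 56.4 kb before AREG begins, and BTC lies 289.8 kb beyond AREG on the opposite strand. Within this cluster BTC was the only gene with enough reads for testing. EPGN had at most 3 reads in any library.

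To set the most abundant ligand beside a pair of ligands with few reads, the 250 bases before the RefSeq start site are shown for AREG, EREG and HBEGF, and for the receptor EGFR (RefSeq on GRCh38.p14, strand of the gene, 5′ to 3′). RefSeq promoters were matched for 9 of the 10 members, all but ERBB3. Capitals mark the motif TATAAA, searched on both strands.
AREG: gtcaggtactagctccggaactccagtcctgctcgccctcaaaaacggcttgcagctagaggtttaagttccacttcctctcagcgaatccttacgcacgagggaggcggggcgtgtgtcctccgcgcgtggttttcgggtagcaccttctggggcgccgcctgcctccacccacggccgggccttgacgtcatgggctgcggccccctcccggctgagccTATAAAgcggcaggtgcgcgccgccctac
EREG: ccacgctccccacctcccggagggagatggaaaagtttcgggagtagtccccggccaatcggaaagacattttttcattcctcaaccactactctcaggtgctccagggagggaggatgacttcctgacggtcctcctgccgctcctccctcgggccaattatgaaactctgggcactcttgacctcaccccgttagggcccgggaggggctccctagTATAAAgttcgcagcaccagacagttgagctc
HBEGF: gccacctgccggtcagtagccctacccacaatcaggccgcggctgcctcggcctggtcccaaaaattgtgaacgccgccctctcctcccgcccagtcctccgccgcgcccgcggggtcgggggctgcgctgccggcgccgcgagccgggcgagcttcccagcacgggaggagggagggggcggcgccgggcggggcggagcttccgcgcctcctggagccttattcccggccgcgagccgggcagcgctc
EGFR: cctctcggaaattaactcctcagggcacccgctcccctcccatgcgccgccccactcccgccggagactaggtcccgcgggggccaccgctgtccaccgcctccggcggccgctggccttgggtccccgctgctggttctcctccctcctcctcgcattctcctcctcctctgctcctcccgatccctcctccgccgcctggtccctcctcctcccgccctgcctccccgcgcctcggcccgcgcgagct

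The positions are chr4:74444886-74445135 for AREG, chr4:74364895-74365144 for EREG, chr5:140346604-140346853 (minus strand) for HBEGF and chr7:55018767-55019016 for EGFR. TATAAA was found in 2 of the 9 member promoters, AREG and EREG, 29 to 24 bases before the start in AREG and 32 to 27 bases before it in EREG. It occurred in 10.7% of all 35116 RefSeq promoter windows of that length. HBEGF, with 33 CG dinucleotides, stood at percentile 93.2 of all windows, EGFR had 25 (percentile 80.4), AREG 23 (76.3) and EREG 11 (51.5). Of the members not shown, TGFA had 27 (84.1), ERBB2 23 (76.3), ERBB4 14 (57.1), BTC 8 (45.9) and EGF 3 (29.3). In the windows used, ERBB2, the highest member, had as many as AREG, and the order was not that of the RPKM levels. Each window belonged to the RefSeq start nearest to the annotated gene start, and other starts of a gene were not examined. The ERBB2 window (chr17:39687844-39688093) runs past the annotated gene start at 39687914. The AP-1 type motif TGANTCA was found in ERBB2 and EGF and in 6.57% of all windows, while CTTTGA, a TCF/LEF type motif (11.2% of all windows), and GGGNNTTCC, an NFkB type motif (5.78%), were found in none of the 9. No binding was measured, and the matches describe these windows only.

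Of the 6 tested members, 0 passed an adjusted p-value of 0.05 in edgeR's quasi-likelihood test, against 1.25% of all tested genes. With limma-voom and with DESeq2 the count was also 0, although DESeq2 gave no adjusted p for TGFA and BTC. At an unadjusted p under 0.05 there was 1 member, EGFR, where 16.2% of all tested genes reached that level. The median log2 fold change of the 6 was -0.01, against 0.00 for all tested genes. The count was 0 in each of the 16 alternative fits as well. EGFR was also the 1 member at an unadjusted p under 0.05 with limma-voom and with DESeq2, and there was none after the length and GC correction. The shares of all tested genes at that level in these fits were not computed.

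**Figure D3:**
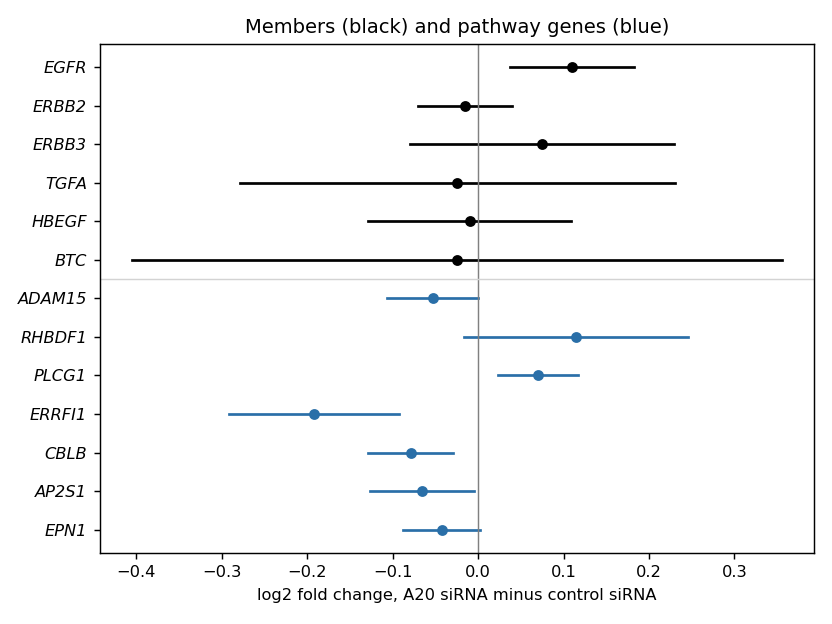
Log2 fold change (A20 siRNA minus control siRNA) with its 95% confidence interval for the 6 tested members (black) and for 7 pathway genes described in the text (blue). Among the members the interval of EGFR (0.04 to 0.18) lies to the right of 0, and that of ERRFI1 (-0.29 to -0.09) lies farthest to the left among the pathway genes.

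The genes that work next to these receptors were examined as 5 lists with 66 genes. Of these, 57 were tested, and 0 passed an adjusted p-value of 0.05 (edgeR) in either direction. At an unadjusted p under 0.05 there were 11 of the 57 with edgeR, where 16.2% of all tested genes reached that level. The count was 10 with limma-voom, 9 with DESeq2 and 17 with the length and GC correction. The shares of all tested genes at that level in those 3 fits were not computed. The groups did not overlap for 6 of the 57, where 7.61% of all tested genes did not overlap. The median log2 fold change over the 57 was -0.01, with a range from -0.19 to 0.11. At the adjusted threshold limma-voom and DESeq2 called 1 gene each, ERRFI1 in both, where they called 1.23% and 1.53% of all tested genes.

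Of the further EGF-type ligands EPGN, NRG1, NRG2, NRG3 and NRG4, none had enough reads for testing. The neuregulins NRG1, NRG2 and NRG3 were at 0 in all libraries, and NRG4 had at most 4 reads. With ERBB4 also at 0, neither the neuregulins nor the receptor that binds all of them were found beyond a few reads.

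Of 9 genes for ligand shedding, 7 were tested, 0 passed and the median log2 fold change was -0.01. ADAM10 and ADAM17, the main proteases that release EGF-type ligands, were at 195.7 ± 4.30 and 57.3 ± 1.85 CPM in the control libraries (SD, n = 4 each). On the log2 scale ADAM10 differed by 0.00 (adjusted p = 0.994) and ADAM17 by -0.04 (adjusted p = 0.625). The smallest p-values of the list belonged to ADAM15 (log2 fold change -0.05, adjusted p = 0.307) and to RHBDF1, an inactive rhomboid that carries ADAM17 to the surface (0.11, adjusted p = 0.383).

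Of 22 adaptors and proximal effectors, 21 were tested and 0 passed, with a median log2 fold change of -0.01. PLCG1, a phospholipase that docks on the activated receptor, was between 189.8 and 198.4 CPM in the control libraries and between 199.9 and 206.5 CPM in the A20 siRNA libraries. Its groups did not overlap, at a difference of 0.07 on the log2 scale (SE 0.02, adjusted p = 0.119). Without control replicate 1 it passed (adjusted p = 0.0373), in a fit that called 7.37% of all genes. With the length and GC correction the difference was 0.040 (adjusted p = 0.381).

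Of 14 receptor inhibitors and ubiquitin ligases, 13 were tested and 0 passed, with a median log2 fold change of 0.01. The smallest p of all 57 pathway genes belonged to ERRFI1 (chromosome 1, 8004404 to 8026309), also called MIG6, a feedback inhibitor that binds the kinase domain of EGFR. It was at 48.3, 47.2, 43.7 and 46.8 CPM in the control libraries and at 39.8, 38.2, 39.6 and 46.3 CPM in the A20 siRNA libraries. Of the A20 siRNA libraries, 3 were below every control, and A20 siRNA replicate 4 was above control replicate 3. The difference was -0.19 on the log2 scale (SE 0.05, 95% confidence interval -0.29 to -0.09) with an adjusted p of 0.0508, just outside the threshold.

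The call on ERRFI1 depended on the fit. It passed with RLE normalization (adjusted p = 0.0475), limma-voom (0.0445), DESeq2 (0.0261), the length and GC correction (0.0168) and without a low-count filter (4.02e-05), and it did not pass when each library had to hold 10 counts or more (0.0540). With 1 library left out its log2 fold change ran from -0.25 without A20 siRNA replicate 4 to -0.16 without A20 siRNA replicate 2, and its adjusted p from 0.00637 to 0.152.

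CBLB, a ubiquitin ligase that marks activated receptors for degradation, was between 98.7 and 99.9 CPM in the control libraries and between 92.5 and 95.3 CPM in the A20 siRNA libraries. The groups did not overlap, the difference was -0.08 on the log2 scale (SE 0.02), and the adjusted p was 0.0991. With the length and GC correction the difference was -0.12 (adjusted p = 0.0186). That fit called 2.59% of all genes, 98 higher and 249 lower. Its relative CBL, the main ubiquitin ligase of EGFR, had a log2 fold change of the other sign, 0.08 (SE 0.03, adjusted p = 0.163).

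**Figure D4:**
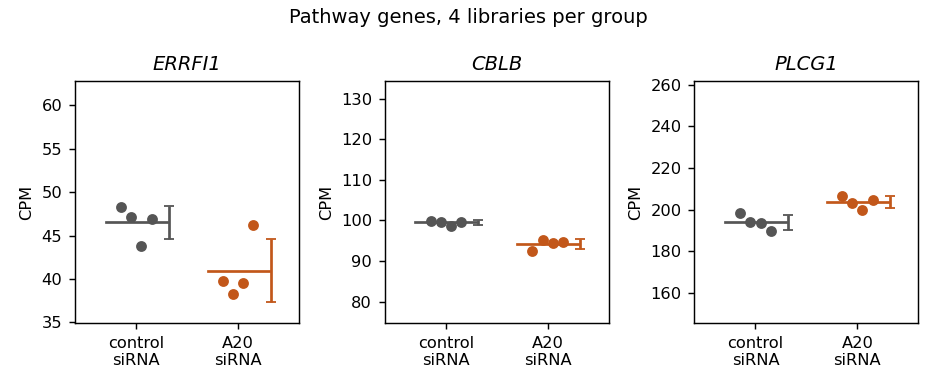
CPM of ERRFI1, CBLB and PLCG1 in each library, drawn as in the plot of the 6 members, with the mean and 1 SD per group and axes that do not start at 0. CBLB and PLCG1 separate by group, while A20 siRNA replicate 4 of ERRFI1 (46.3 CPM) lies among the controls.

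All 16 genes of receptor uptake and sorting were tested, 0 passed, and the median log2 fold change was 0.00. The smallest p-values were those of AP2S1, a subunit of the clathrin adaptor (log2 fold change -0.07, adjusted p = 0.276), and of the endocytic adaptor EPN1 (-0.04, adjusted p = 0.335). EPN1 was between 157.4 and 161.7 CPM in the control libraries and between 154.2 and 156.2 CPM in the A20 siRNA libraries. With the length and GC correction EPN1 passed (-0.09, adjusted p = 0.0370), in a fit that called 2.59% of all genes.

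**Figure D5:**
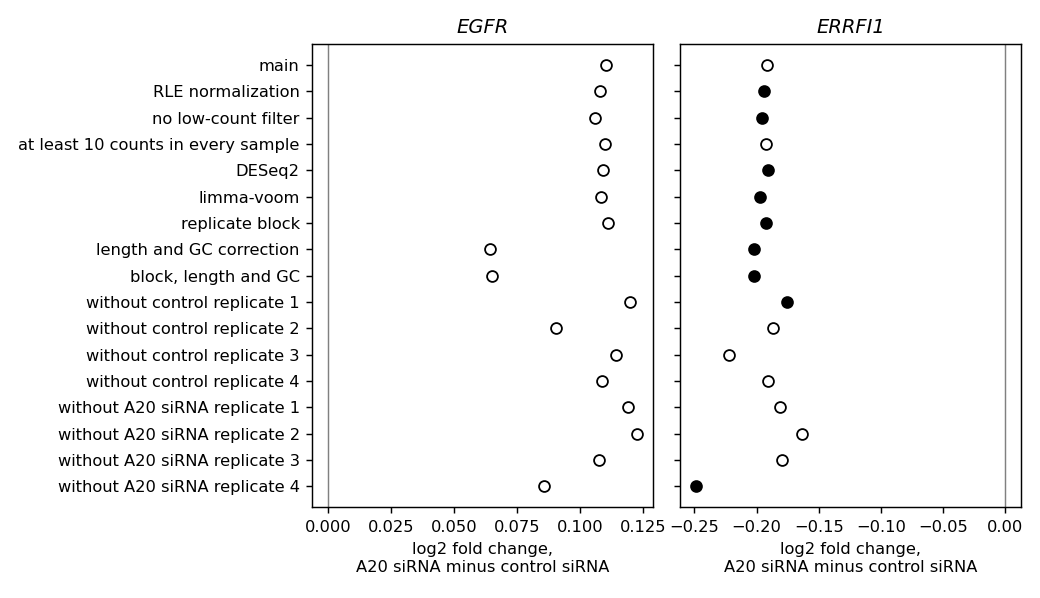
Log2 fold change (A20 siRNA minus control siRNA) of EGFR and of its inhibitor ERRFI1 in the reported fit (top) and in each alternative fit, with filled points for an adjusted p under 0.05. EGFR stays to the right of 0 and open throughout, at its smallest with the length and GC correction (0.06), and ERRFI1 stays to the left of 0 and is filled in 9 of the 17 fits.

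For members of at least 10 CPM, the genes with the most similar profile over the 8 libraries were sought by Pearson's r of log2 CPM, as a description without a test. For EGFR these were ENSG00000277287 (r = 0.979), ENSG00000179979 (0.971) and the neuronal navigator gene NAV3 (0.968). For ERBB2 they were HSP90AA2P (0.976), the arginyl-tRNA synthetase gene RARS1 (0.948) and EXD3 (0.933), and for HBEGF the histone gene H2AC14 (0.978), the protein kinase C gene PRKCE (0.955) and the calcium channel gene CACNA1D (0.953). Of these genes, ENSG00000277287, H2AC14 and CACNA1D had few reads, at mean levels of 0.645, 0.507 and 0.735 CPM. The others had means between 2.77 and 409.7 CPM. None of the 3 lists shares a gene with another. These are the highest of 13412 profiles over 8 points each, and the points share the depth and length trends of their library.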

How the data were processed

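RNA was captured by poly(A) selection and sequenced as single reads by the authors, who trimmed with Trimmomatic, aligned to GRCh38.p7 with STAR and deposited its raw gene counts of unique alignments, neither scaled nor pooled. The GENCODE release and the strand setting were not given in the sources used here. Titles gave the groups.

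The main test was edgeR 4.0.16 (R 4.3.3) on 13412 genes kept by filterByExpr (minimum count 10), with TMM factors, quasi-likelihood F-tests on group alone and Benjamini-Hochberg adjustment (0.05). The SE of a fold change is its size over the root of F. Symbols, coordinates and lengths came from GENCODE 44 (56948 identifiers matched), and GC content from the longest transcript. Alternatives used limma 3.58.1, DESeq2 1.42.0, other filters, RLE, a loess correction (span 0.5) for length and GC content, the replicate number and leaving out each library. The fits were tested on simulated data.

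The members and lists were chosen with earlier results of these data known. Named were the members, TNFAIP3, in each list genes passing the threshold and the 2 of smallest p, and for members of at least 10 CPM the 3 most correlated profiles. A gene that this rule names in the adaptor list and a leukocyte marker are not reported here. ADAM10, ADAM17, CBL and further genes with few or no reads were named outside that rule, after their values were seen.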

Additional observations from a re-analysis of the deposited data

Results flagged for a closer look

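In 32 groups of 4 libraries (members above 3 counts, TNFAIP3 and the named pathway genes), 3 libraries stood apart from the rest of their group, where chance gives about 1 in 20 groups, or 1.6. For ERBB3, control replicate 1 was at 8.98 CPM and the other controls between 7.78 and 7.87 CPM, a gap of 0.925 of the group's range. For BTC, control replicate 4 was at 1.48 CPM and the others between 1.02 and 1.04 CPM, a gap of 0.949 of the range, on 35 reads. For TNFAIP3, A20 siRNA replicate 2 was at 3.01 CPM and the others between 3.40 and 3.47 CPM, a gap of 0.847 of the range.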

How the results depend on the processing

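The count of called members was 0 in every fit run. EGFR kept its direction in all of them, with log2 fold changes from 0.09 to 0.12 with 1 library left out (adjusted p from 0.0548, without control replicate 1, to 0.328). TNFAIP3 kept its direction and call, from -0.77 to -0.67 with 1 library left out, except that DESeq2 gave it no adjusted p. With 1 library left out, TGFA ran from -0.070 to 0.013, HBEGF from -0.047 to 0.019 and BTC from -0.077 to 0.11 on the log2 scale, so the direction of these 3 was not fixed. ERBB2 ran from -0.034 to -0.0049 and ERBB3 from 0.032 to 0.13, and with the correction for length and GC content ERBB2 was at -0.046 and ERBB3 at 0.039, in no case past the threshold. Depth limits BTC, TGFA, ERBB3 and the members near 0.

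Without a low-count filter 314 genes were called higher and 310 lower, in place of 85 and 82. The correction for length and GC content gave 249 lower, and the counts ran from 6 to 567 higher and 6 to 430 lower with 1 library left out, the most without control replicate 1 and the fewest without A20 siRNA replicate 3. Leaving out any of the 8 libraries moved at least 1 of these counts by over 1.5 times. The cause was not tested. Against 0 called pathway genes there was 1 (ERRFI1) with RLE, without a low-count filter, by DESeq2 and by limma-voom. These fits called 1.36%, 2.17%, 1.53% and 1.23% of all tested genes. After correction for length and GC content there were 3 (ERRFI1, CBLB and EPN1), where 2.59% of all tested genes were called. With 1 library left out there were from 0 to 6. The 6 were called without control replicate 1, where 7.37% of all tested genes were called, against 0.0886% to 2.05% without any other library.

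Deviations from the group means correlated by -0.01 to 0.084 between libraries of the same number, under 0.1, so the numbers were not taken as pairs. With the replicate number as a block there were 262 higher and 212 lower genes, 3.53% of all tested genes. Among them were 0 members and 1 pathway gene (ERRFI1, adjusted p = 0.0117), and EGFR had an adjusted p of 0.0817. Block and correction together gave 185 and 411 genes (4.44% of all tested genes), 0 members and 3 pathway genes.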
